A study of Mus musculus with 8 samples.

Results

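The interleukin-1 family genes measured here were the ligands Il1a, Il1b and Il18, the receptor antagonist Il1rn, the receptor accessory chain Il1rap and the binding protein Il18bp. They were taken by gene symbol from a table of 17518 genes, and 6 of 6 were listed and passed the filter on low counts, as did 11911 genes in all. The study's title concerns nanoparticles that respond to reactive oxygen species and their use in acute lung injury, and the labels call the agent RCMNs. The 8 libraries were made from mRNA, captured by its poly(A) tail, of an established line of mouse alveolar macrophages, MH-S. LPS+RCMNs cells (n = 3) had received 100 ng/mL lipopolysaccharide (LPS, a cell wall component of bacteria) together with 1 µg/mL RCMNs, LPS cells (n = 2) had received LPS at a dose that the labels do not give separately, and control cells (n = 3) had received phosphate-buffered saline. No library was given RCMNs without LPS, no genotype or time is stated, and nothing in the labels ties a replicate to a culture of its own. The p-values thus set differences between groups against the spread of these samples only, and that spread may be technical.

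Interleukin-1 alpha and interleukin-1 beta signal through the same receptor, which recruits the accessory chain encoded by Il1rap and then MyD88 and the IRAK kinases. The antagonist encoded by Il1rn occupies that receptor without recruiting the accessory chain, so the balance of ligand and antagonist sets how much signal passes. Interleukin-18 has its own receptor and a secreted decoy, the protein of Il18bp. Macrophages make pro-interleukin-1 beta anew when LPS engages Toll-like receptor 4, whereas they hold Il18 transcript at rest, and caspase-1 cleaves both precursors before release.

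Libraries held 18.6 to 21.2 M (mega) counts, and 0 counts of a gene allow a level of up to 0.13 to 0.182 counts per M, depending on the library (3 counts over its scaled size, counting error only). The macrophage marker Adgre1 was at 182 to 208 FPKM (fragments per kb of gene and M reads) in LPS+RCMNs, 92.1 to 112 FPKM in LPS and 103 to 106 FPKM in control libraries, and 14 of 14 macrophage markers were listed. They summed to 6270 to 7800 CPM (counts per M) in LPS+RCMNs, 5490 to 6750 CPM in LPS and 4660 to 5510 CPM in control libraries, of which Lyz2 made up 2890 to 3790, 2980 to 3820 and 1970 to 2320 CPM in that order. Of the 11 macrophage markers tested, 5 were called higher in LPS than in control, 4 lower and 2 in neither direction. Of all tested genes 31.4% were called higher and 32.1% lower there. The markers called higher were Fabp4 (log2 fold change 2.91), Spi1 (1.27), Lyz2 (0.65), Cd68 (0.61) and Adgre1 (0.46). Those called lower were Csf1r (-0.74), Itgam (-0.99), Mrc1 (-1.85) and Siglec1 (-1.26). Siglecf and Pparg, which mark alveolar macrophages, were at 0.31 FPKM or less in every library, and Chil3, another such marker, had no count in LPS+RCMNs and control libraries, so these 3 were near 0. Fabp4, a lipid carrier that also marks alveolar macrophages, was not: it was at 87.9 to 130 FPKM in LPS+RCMNs, 110 to 125 FPKM in LPS and 20.8 to 23.3 FPKM in control libraries. Of the replicates, number 2 of LPS+RCMNs and number 1 of control differed most from the rest of their groups, with a chi-square per degree of freedom of 35.5 to 47.4 against their replicates, compared with 2.82 between the other LPS+RCMNs libraries and 1.93 between the other control libraries. It was 12.5 between the LPS libraries. Both LPS libraries also differed from the others by gene length: across genes, the Spearman correlation of length with fold change was 0.59 in LPS+RCMNs over LPS, -0.09 in LPS+RCMNs over control and -0.59 in LPS over control. Transcripts of red blood cells (6 of 6 erythroid markers listed) summed to 0.658 to 34.1 CPM in LPS+RCMNs, 4360 to 5620 CPM in LPS and 0.824 to 20.7 CPM in control libraries. For neutrophils, which can carry Il1b and Il1rn transcript, 9 of 10 markers were listed, and they summed to 19.4 to 23.7 CPM in LPS+RCMNs, 15.6 to 15.8 CPM in LPS and 4.05 to 9.97 CPM in control libraries. The neutrophil marker Ly6g had 1 count over the LPS+RCMNs libraries and none in the LPS and control libraries, and S100a9 was at 2.18 to 2.67 CPM in LPS and had no count in the others. Mmp8 made up most of the sum (19.1 to 23 CPM in LPS+RCMNs, 9.69 to 10.2 CPM in LPS and 3.96 to 9.84 CPM in control libraries), whereas S100a8 was highest in LPS (0.147 to 0.557 CPM in LPS+RCMNs, 2.12 to 2.24 CPM in LPS and 0.0433 to 0.0466 CPM in control libraries), as were Camp and Retnlg. Lymphocyte markers (6 of 6 listed) summed to at most 1.15 CPM, epithelial markers (5 of 6) to at most 0.182 CPM and fibroblast and endothelial markers (4 of 6) to at most 3.63 CPM in any library. The part of these differences in the results below was not tested.

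Il1a, Il1b and Il1rn, the members whose RNA moved, lie on chromosome 2 of GRCm38 (mm10). Il1a (gene ID 16175) spans 129299609 to 129310186 and Il1b (16176) 129364569 to 129371164, both on the minus strand, and Il1rn (16181) spans 24336860 to 24351491 on the plus strand. Il1rap (16180) lies on chromosome 16 at 26581509 to 26730128, Il18 (16173) on chromosome 9 at 50554700 to 50581841 and Il18bp (16068) on chromosome 7 at 102015074 to 102018232. In the GENCODE annotation Il1a, Il1b and Il1rap overlap genes on the opposite strand (Gm14023, Il1bos and Gm20319), which the table does not list, so reads from these cannot be told apart from theirs unless counting used strand. The 300-base windows at the annotated start (RefSeq, GRCm38.p6, available for 6 of 6 members) are shown for Il1a, Il1b and the 2 separate start regions of Il1rn, since these transcripts changed together. Capitals mark matches, on either strand, to TATAAA (the TATA box) or TGANTCA (the AP-1 motif). Il1a is read from the minus strand of chr2:129309923-129310222, Il1b from the minus strand of chr2:129371090-129371389, and the Il1rn windows from the plus strand of chr2:24336610-24336909 and chr2:24345041-24345340.
Il1a: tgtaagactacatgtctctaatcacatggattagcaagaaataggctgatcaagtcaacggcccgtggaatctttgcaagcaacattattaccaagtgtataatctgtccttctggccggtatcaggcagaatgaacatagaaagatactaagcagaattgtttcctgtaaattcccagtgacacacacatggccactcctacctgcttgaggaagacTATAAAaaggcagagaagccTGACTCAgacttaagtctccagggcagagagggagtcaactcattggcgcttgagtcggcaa
Il1b: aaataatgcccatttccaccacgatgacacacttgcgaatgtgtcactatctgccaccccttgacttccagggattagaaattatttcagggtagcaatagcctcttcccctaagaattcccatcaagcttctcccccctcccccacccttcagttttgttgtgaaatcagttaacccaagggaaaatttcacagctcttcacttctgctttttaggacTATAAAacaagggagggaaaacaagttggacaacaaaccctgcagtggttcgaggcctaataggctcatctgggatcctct
Il1rn, upstream start: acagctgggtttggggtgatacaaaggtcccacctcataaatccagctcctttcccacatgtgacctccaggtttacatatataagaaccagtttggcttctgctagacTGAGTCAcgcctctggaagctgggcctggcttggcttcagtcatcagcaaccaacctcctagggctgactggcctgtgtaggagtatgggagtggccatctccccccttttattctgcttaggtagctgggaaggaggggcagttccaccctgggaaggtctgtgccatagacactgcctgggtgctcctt
Il1rn, downstream start: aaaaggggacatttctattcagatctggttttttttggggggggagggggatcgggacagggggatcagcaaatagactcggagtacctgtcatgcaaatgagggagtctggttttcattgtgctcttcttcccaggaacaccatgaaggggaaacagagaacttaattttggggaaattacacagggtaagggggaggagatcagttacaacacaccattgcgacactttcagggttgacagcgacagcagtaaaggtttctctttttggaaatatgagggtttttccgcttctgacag

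The TATA box match began at position -32 in Il1a and -31 in Il1b, counted back from the start site, and 13.6% of the 32851 mouse windows of this length held the letters. The AP-1 letters were at -12 in Il1a and at -141 in the upstream Il1rn window, against a share of 7.81% of all windows. TTGCNNAA (the C/EBP motif, in 10.8% of windows), the interferon response element (3.44%) and the NF-kappaB consensus (8.46%) had no match in these 4 windows, which says only that the letters are not there. Another Il1rn window, which overlaps the downstream one, is not shown. The table sums all transcripts of a gene, so use of these starts cannot be told apart.

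Il1a, Il1b and Il1rn were the members that changed. All 3 rose in LPS cells over control, and in LPS+RCMNs cells all 3 were lower than in LPS but above control, while Il18, Il18bp and Il1rap passed no test. Tests were edgeR's quasi-likelihood test with Benjamini-Hochberg adjustment over all genes tested, called at an adjusted p below 0.05. In LPS versus control 3 of 6 members rose and none fell, where 31.4% of tested genes were called higher, 32.1% lower and 63.4% in either direction. In LPS+RCMNs versus LPS 3 of 6 fell and none rose, where 29.5% of tested genes were called lower, 29.8% higher and 59.3% in either direction. In LPS+RCMNs versus control 3 of 6 rose and none fell, where 4.33% of tested genes were called higher, 3.23% lower and 7.56% in either direction. So many genes were called in both comparisons with the LPS libraries that a count of 3 of 6 there says little about the members. By FPKM the same 3 members did not overlap between any groups: 22.1% of tested genes were higher without overlap in LPS than in control, 22.1% were lower without overlap in LPS+RCMNs than in LPS, and 9.73% were higher and 21.6% lower without overlap in LPS+RCMNs than in control. The members' median log2 fold changes were 2.49, -1.06 and 1.69 in that order of comparisons, beside -0.04, 0.03 and -0.02 over all tested genes. The comparisons share libraries and are not independent of each other.

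Il1b, the main secreted ligand, had the largest fold change of the 6 members in all 3 comparisons. It was at 5.33, 5.16 and 5.89 FPKM in the LPS+RCMNs libraries, 212 and 215 FPKM in the LPS libraries, and 0.04, 0.20 and 0.20 FPKM in the control libraries. The groups did not overlap: LPS+RCMNs lay far below LPS and far above control. Among all 17518 listed genes, Il1b ranked 7615 to 7877 by FPKM in LPS+RCMNs, 467 to 474 in LPS and 11399 to 12624 in control libraries. The control level rests on 1, 5 and 5 counts, so the size of any fold against it is uncertain. The log2 fold change was 10.99 ± 0.22 (SE) in LPS over control (adjusted p = 2.62e-08), -5.69 ± 0.15 in LPS+RCMNs over LPS (adjusted p = 3.41e-07) and 5.30 ± 0.26 in LPS+RCMNs over control (adjusted p = 1.57e-05). Il1b thus fell by 5.69 on the log2 scale with RCMNs, a level 51.5-fold lower than in LPS, and was still 39.5-fold above control. In bulk RNA, fewer cells expressing a gene and less RNA per cell cannot be told apart.

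Il1a, the ligand that is active as a precursor and is often released from damaged cells, followed the same order at lower levels. Its FPKM was 1.41, 1.11 and 1.53 in LPS+RCMNs, 25.5 and 31.4 in LPS, and 0.13, 0.08 and 0.10 in control libraries, again with no overlap. The log2 fold change was 8.53 ± 0.23 in LPS over control on 12 control counts (adjusted p = 9.97e-08), -4.79 ± 0.17 in LPS+RCMNs over LPS (adjusted p = 7.8e-07) and 3.73 ± 0.26 in LPS+RCMNs over control (adjusted p = 9.8e-05). Both ligand folds shrink where a constant is added to FPKM: on log2(FPKM + 1) with limma the values for LPS over control were 7.55 for Il1b and 4.73 for Il1a, and those for LPS+RCMNs over control were 2.50 and 1.09. All 4 of these were called. Per length, Il1b exceeded Il1a 3.79-, 4.65- and 3.86-fold in LPS+RCMNs libraries and 8.30- and 6.84-fold in LPS libraries. The ratio in control libraries, on 1 to 5 counts of each gene, was too imprecise to place against these.

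Il1rn, the antagonist, was the member of highest level in control and LPS+RCMNs cells and had smaller log2 fold changes than the ligands in the count test. That order turned in LPS+RCMNs over control on log2(FPKM + 1), where Il1rn was at 2.84, Il1b at 2.50 and Il1a at 1.09. It was at 142, 79.3 and 129 FPKM in LPS+RCMNs, 263 and 214 FPKM in LPS, and 12.7, 16.1 and 16.4 FPKM in control libraries. No group overlapped another, although LPS+RCMNs replicate 2, which stood apart, was 0.584 times the mean CPM of the other LPS+RCMNs libraries. The log2 fold change was 4.48 ± 0.25 in LPS over control (adjusted p = 1.64e-06), -1.46 ± 0.23 in LPS+RCMNs over LPS (adjusted p = 0.000552) and 3.03 ± 0.23 in LPS+RCMNs over control (adjusted p = 0.000163). Il1rn was thus 2.75-fold lower with RCMNs than in LPS and 8.14-fold higher than in control. The difference from LPS was not called on the deposited TPM (log2 fold change -0.57, adjusted p = 0.068 with limma on log2(TPM + 1)), a scale on which the median of all genes stood at 0.71. Without control replicate 1 and LPS+RCMNs replicate 2 it was -1.27 ± 0.10 (adjusted p = 1.08e-06).

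**Figure D1:**
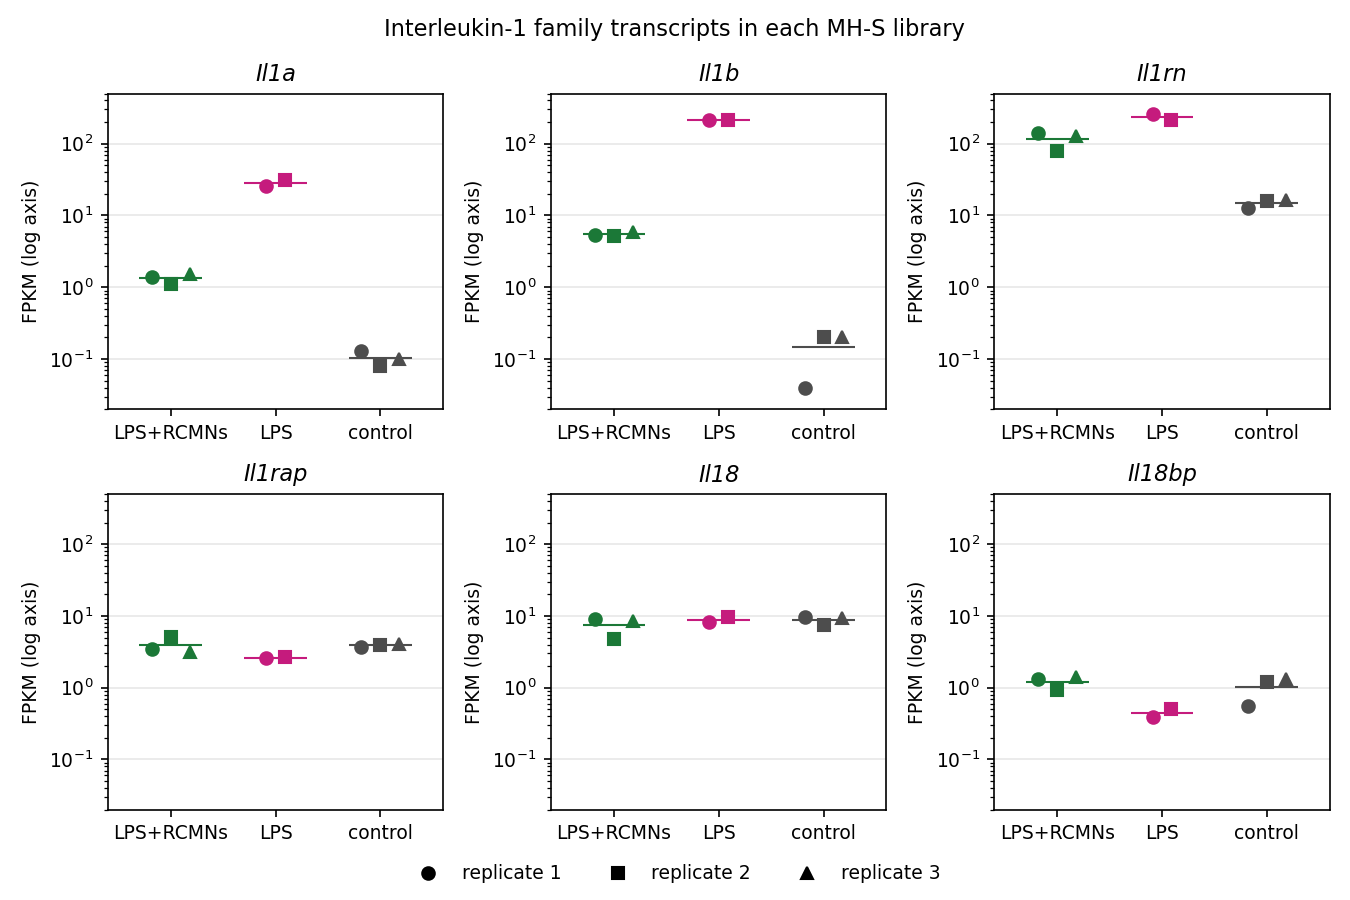
Level of each member in each library (FPKM, log axis), by group, with the replicate number as the marker shape and a line at the group mean. Il1a, Il1b and Il1rn are highest in LPS, lower in LPS+RCMNs and lowest in control, while Il1rap, Il18 and Il18bp stay within 0.39 to 9.71 FPKM.

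The antagonist and the ligands therefore stood in different proportion in the 3 groups. Per length, Il1rn RNA exceeded the summed Il1a and Il1b RNA by 20.8-, 12.5- and 17.0-fold in the LPS+RCMNs libraries. In the LPS libraries the ratio was 1.11 and 0.87, so antagonist and ligand RNA were about equal. It was 76.0, 58.2 and 54.2 in the control libraries. The ratio is formed within a library, so scaling between libraries does not enter it, but it was not corrected for the length trend of the LPS libraries. With that trend removed, the log2 fold change in LPS over control went from 10.99 to 10.33 for Il1b. It went from 8.53 to 8.23 for Il1a and from 4.48 to 4.39 for Il1rn, so the near-equal ratio in LPS depends on this trend. Implied gene lengths were 2425 bases for Il1rn, 1926 for Il1a and 1304 for Il1b. With the trend on gene length removed, the log2 fold changes in LPS+RCMNs over LPS were -1.37 for Il1rn, -4.52 for Il1a and -5.07 for Il1b, and all 3 were called. On the log2 scale the ratio averaged 4.04 ± 0.37 in LPS+RCMNs (SD, n = 3), -0.03 ± 0.25 in LPS (SD, n = 2) and 5.96 ± 0.26 in control (SD, n = 3). No group overlapped another, and LPS+RCMNs lay between LPS and control, nearer to control on this log2 scale but nearer to LPS as a plain ratio. The control ratio rests on 12 counts of Il1a and 11 of Il1b over all control libraries, so its place is imprecise. Against Il1b alone, the ratio of Il1rn was 26.2 (95% exact binomial interval 22.1 to 31.3), 15.2 (12.8 to 18.4) and 21.4 (18.2 to 25.2) in LPS+RCMNs, and 1.24 (1.20 to 1.28) and 0.997 (0.965 to 1.03) in LPS. In control it was 333, 81.9 and 83.5, where the intervals reach from 34.9 to 13200 because Il1b had so few counts. Intervals cover counting error only. These ratios are a description of RNA, and protein was not measured.

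**Figure D2:**
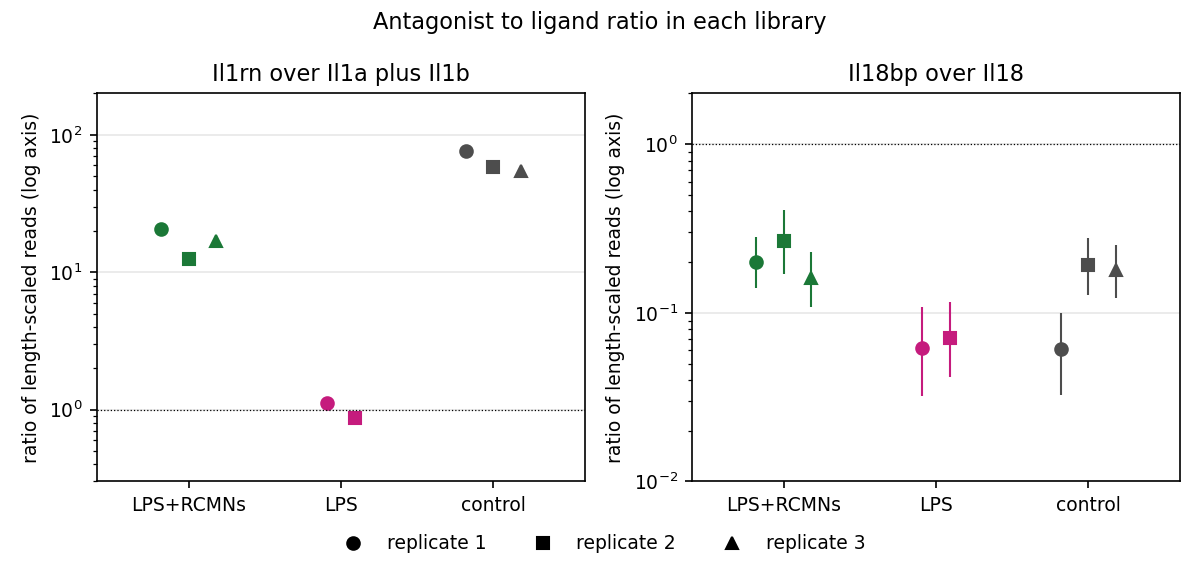
Ratio of antagonist to ligand RNA per library (log axes), from counts divided by gene length, for Il1rn over the sum of Il1a and Il1b (left, dotted line at 1) and for Il18bp over Il18 (right, bars are 95% exact binomial intervals). The left ratio is 12.5 to 20.8 in LPS+RCMNs, 0.87 to 1.11 in LPS and 54.2 to 76.0 in control libraries, whereas on the right control replicate 1 lies with the LPS libraries.

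Il18, the ligand held at rest, showed no difference that passed the test in any comparison. Its FPKM was 8.96, 4.75 and 8.45 in LPS+RCMNs, 8.12 and 9.71 in LPS, and 9.65, 7.41 and 9.26 in control libraries. The groups overlapped, and the lowest value was that of LPS+RCMNs replicate 2. The log2 fold change was 0.49 ± 0.27 in LPS over control (adjusted p = 0.137), -0.66 ± 0.27 in LPS+RCMNs over LPS (adjusted p = 0.0603) and -0.17 ± 0.24 in LPS+RCMNs over control (adjusted p = 0.74). The LPS over control value was called without LPS+RCMNs replicate 2 (0.54, adjusted p = 0.0175), and with the trend on gene length removed it turned to -0.42 (adjusted p = 0.24). The LPS+RCMNs over LPS value turned to 0.18 (adjusted p = 0.618) with the length trend removed. Without both libraries that stood apart, the values were 0.62 (adjusted p = 0.00297) and -0.44 (adjusted p = 0.02), both called. Il18 has the shortest transcript of the 6, at 1023 bases, and the 500 genes nearest to it in length had a median of 0.95 in LPS over control and -0.97 in LPS+RCMNs over LPS.

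Il18bp, the decoy of interleukin-18, was at 1.32, 0.94 and 1.40 FPKM in LPS+RCMNs, 0.39 and 0.51 FPKM in LPS, and 0.55, 1.22 and 1.34 FPKM in control libraries. By FPKM LPS lay below both other groups, as it did for 57.8% of tested genes against control and 55.5% against LPS+RCMNs. By CPM with library scaling, control replicate 1 (0.65 CPM, 15 counts) lay below both LPS libraries (0.787 and 1.09 CPM, 13 and 18 counts). The log2 fold change was -0.55 ± 0.47 in LPS over control (adjusted p = 0.334), 0.90 ± 0.47 in LPS+RCMNs over LPS (adjusted p = 0.125) and 0.35 ± 0.38 in LPS+RCMNs over control (adjusted p = 0.641), so none was called. Without control replicate 1 the LPS+RCMNs over LPS value was called (0.87, adjusted p = 0.036), and with the length trend removed it was 1.54 and called (adjusted p = 0.0252). With 1 library left out, the value in LPS over control was between -0.84 (without control replicate 1) and -0.22 (without control replicate 3), and that in LPS+RCMNs over control between 0.04 (without control replicate 1) and 0.65 (without control replicate 3), none of them called. Without both libraries that stood apart, the values in LPS over control and LPS+RCMNs over LPS were -0.84 (adjusted p = 0.035) and 0.98 (adjusted p = 0.0166). Exons of Il18bp overlap those of Numa1, a mitotic spindle gene on the opposite strand, and no source used here says whether counting used strand. Numa1 was at 114 to 127 CPM in LPS+RCMNs, 53.4 to 53.6 CPM in LPS and 141 to 155 CPM in control libraries, against 1.47 to 2.11, 0.787 to 1.09 and 0.65 to 1.86 CPM for Il18bp. Unless counting used strand, reads of the pair cannot be told apart where their exons overlap. Per length, the Il18bp to Il18 ratio was 0.2, 0.267 and 0.16 in LPS+RCMNs, 0.0618 and 0.0711 in LPS, and 0.0607, 0.191 and 0.179 in control libraries, and control overlapped LPS.

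Il1rap, the accessory chain that the interleukin-1, interleukin-33 and interleukin-36 receptors share, was at 3.43, 5.12 and 3.19 FPKM in LPS+RCMNs, 2.58 and 2.64 FPKM in LPS, and 3.73, 3.92 and 4.06 FPKM in control libraries. The LPS values were the lowest by FPKM. Without overlap, LPS lay below control for 57.8% of tested genes and below LPS+RCMNs for 55.5%. The highest value was that of LPS+RCMNs replicate 2, at 1.58 times the mean CPM of its group's other libraries. With library scaling, the log2 fold change was -0.27 ± 0.21 in LPS over control (adjusted p = 0.287), 0.27 ± 0.21 in LPS+RCMNs over LPS (adjusted p = 0.285) and 0.01 ± 0.18 in LPS+RCMNs over control (adjusted p = 0.992). Without LPS+RCMNs replicate 2 the value in LPS+RCMNs over LPS was -0.01 (adjusted p = 0.966) and that in LPS+RCMNs over control -0.23 (adjusted p = 0.234). With the length trend removed the first 2 values turned to 0.17 and -0.14 and were not called.

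**Figure D3:**
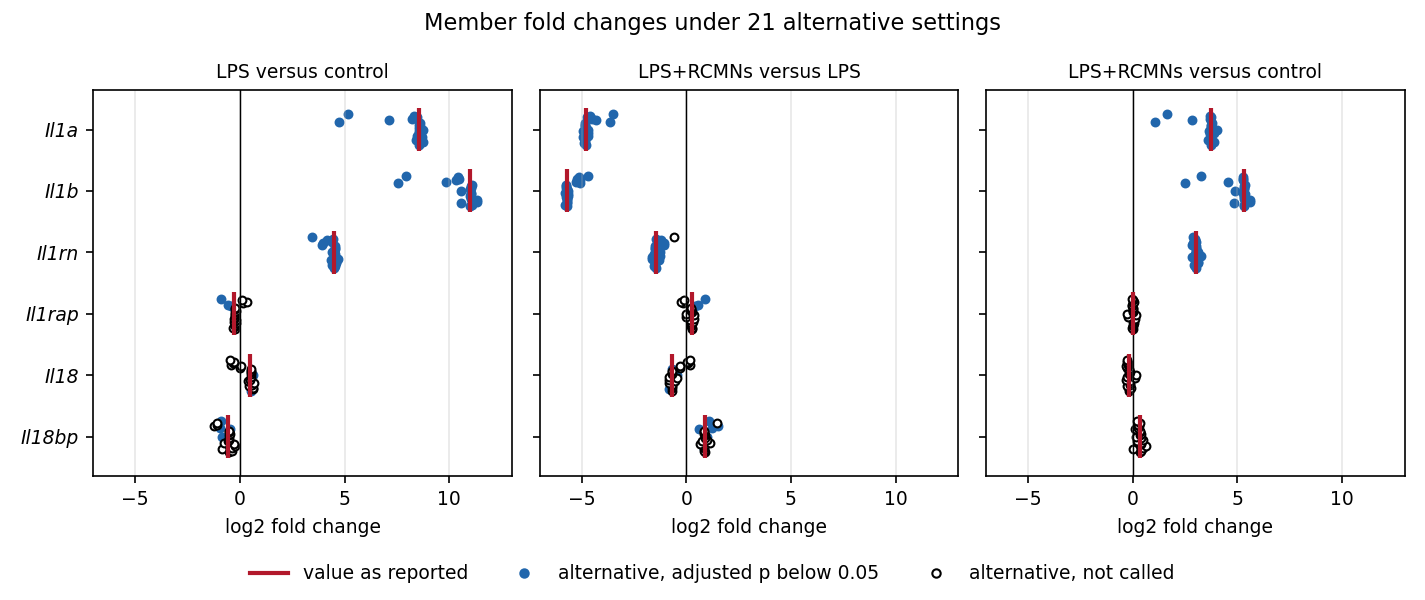
Log2 fold change of each member in the 3 comparisons as reported (red bars) and under 21 alternative settings (points, filled where the adjusted p is below 0.05). Il1a, Il1b and Il1rn keep their direction throughout, with 1 open point for Il1rn in LPS+RCMNs versus LPS, whereas Il1rap and Il18 scatter to both sides of 0.

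By level per length, Il1rn (117 ± 33.0 FPKM, SD, n = 3) was far above the other members in LPS+RCMNs cells. Il18 (7.39 ± 2.30 FPKM) and Il1b (5.46 ± 0.382 FPKM) came next and overlapped, and the lowest Il1b value, 5.16 FPKM, lay just above the highest of Il1rap (3.91 ± 1.05 FPKM), 5.12 FPKM, while the lowest Il18 value, 4.75 FPKM, lay below it, so Il18 and Il1rap overlapped too. Il1a (1.35 ± 0.216 FPKM) and Il18bp (1.22 ± 0.246 FPKM) were last and overlapped. In LPS cells Il1rn (239 ± 34.5 FPKM, SD, n = 2) and Il1b (213 ± 1.96 FPKM) did not differ beyond their spread, and Il1a (28.4 ± 4.17 FPKM) came next, above Il18 (8.91 ± 1.12 FPKM), Il1rap (2.61 ± 0.0424 FPKM) and Il18bp (0.450 ± 0.0849 FPKM). In control cells the order was Il1rn (15.1 ± 2.05 FPKM, SD, n = 3), Il18 (8.77 ± 1.20 FPKM), Il1rap (3.90 ± 0.166 FPKM), Il18bp (1.04 ± 0.426 FPKM), Il1b (0.147 ± 0.0924 FPKM) and Il1a (0.103 ± 0.0252 FPKM), and only the last pair overlapped.

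Of the receptor genes outside the 6 members, 7 of 9 were tested. In LPS versus control 4 fell, none rose and 3 were not called (median -1.42, beside -0.04 over all tested genes). Of all tested genes 32.1% were called lower and 31.4% higher there. The receptor genes that fell were Il1r2, a decoy receptor that binds interleukin-1 without signalling (-2.26 ± 0.25), Sigirr, an inhibitory member of the receptor family (-1.78 ± 0.50), Il1rl1, the receptor for interleukin-33 (-1.77 ± 0.37), and Il18rap, the accessory chain of the interleukin-18 receptor (-1.42 ± 0.15). All 4 were still lower with the length trend removed. Il1r2 was at 5.96 to 10.9 FPKM in LPS+RCMNs, 3.45 to 3.52 FPKM in LPS and 20.5 to 25.2 FPKM in control libraries, with no overlap between groups. In LPS+RCMNs versus LPS 5 receptor genes rose and none fell (median 1.03, beside 0.03), where 29.8% of all tested genes were called higher and 29.5% lower. The receptor genes that rose were Sigirr (1.54 ± 0.50), Il1rl1 (1.52 ± 0.36), Il1r1, the signalling receptor of interleukin-1 (1.10 ± 0.42), Il1r2 (0.96 ± 0.24) and Il18rap (0.70 ± 0.15). With the length trend removed, 3 rose, and Il1r1 (0.54) and Il18rap (0.22) were not called. With a trend on length and level removed, Il1rl1 (0.91, adjusted p = 0.0615) was not called either, and Il1r1 was (1.07, adjusted p = 0.0472). Il1r1 was at 0.15 to 0.31 FPKM in LPS+RCMNs, 0.09 to 0.10 FPKM in LPS and 0.14 to 0.17 FPKM in control libraries, on 72, 18 and 43 counts in all, so it was low in every library. Against control, 4.33% of all tested genes were called higher in LPS+RCMNs cells and 3.23% lower. Of the receptor genes (median -0.25), Il1r2 (-1.31 ± 0.20) and Il18rap (-0.72 ± 0.13) were lower there. Without both libraries that stood apart, Il1r1 was also called higher (1.18, adjusted p = 0.0252) and Il1rl1 lower (-0.39, adjusted p = 0.00117) in that comparison. Of the other ligands of the family 1 of 6 was listed, Il33, with 1 count in each group.

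All 19 genes of the signalling list were tested. In LPS versus control 7 rose, 8 fell and 4 were not called (median -0.31, beside -0.04 over all tested genes), where 31.4% of all tested genes were called higher and 32.1% lower. The largest rises were those of Irak3, a kinase-dead IRAK that dampens the pathway (2.42 ± 0.13), Nfkbiz, an inducible cofactor of NF-kappaB (1.76 ± 0.20), and Ube2n, a ubiquitin-conjugating enzyme that works with Traf6 (1.16 ± 0.09), and Myd88, the receptor adaptor, rose by 0.92 ± 0.10. The largest falls were those of the ubiquitin ligase Peli2 (-1.44 ± 0.31) and of Tab3 (-0.93 ± 0.12) and Tab2 (-0.73 ± 0.09), which link ubiquitin chains to the kinase of Map3k7. With the length trend removed 8 rose and 1 fell: Tab2 was the gene still lower (-0.26), and Map3k7 was called higher (0.32), where it was called lower (-0.35) without that step. In LPS+RCMNs versus LPS 7 fell, 5 rose and 7 were not called (median 0.14, beside 0.03). Of all tested genes 29.5% were called lower and 29.8% higher there. Irak2, the IRAK that sustains signalling, fell by 1.06 ± 0.15, Ube2n by 1.00 ± 0.09, Irak3 by 0.98 ± 0.13, Myd88 by 0.89 ± 0.10 and Nfkbiz by 0.63 ± 0.20, while Tab3 (0.75 ± 0.12), Ikbkg (0.55 ± 0.12) and Tab2 (0.44 ± 0.09) were among those that rose. With the length trend removed 9 fell and none rose. Against control, 4.33% of all tested genes were called higher in LPS+RCMNs cells and 3.23% lower. Of the signalling genes (median -0.06), Irak3 (1.44 ± 0.12) and Nfkbiz (1.13 ± 0.19) were higher there. Peli2 (-1.02 ± 0.26), Irak1 (-0.46 ± 0.08) and Traf6 (-0.34 ± 0.09) were lower. With the length trend removed, Peli2 (-0.97, adjusted p = 0.0575) and Traf6 (-0.28, adjusted p = 0.108) were not called. Irak3 was at 17.5 to 17.7 FPKM in LPS+RCMNs, 24.3 to 27.6 FPKM in LPS and 6.11 to 8.17 FPKM in control libraries, the same order as Il1rn.

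Among 11 genes of processing and release, 3 rose, 2 fell and 6 were not called in LPS versus control (median 0.12), a smaller share called than the 63.4% of all tested genes. Casp4, the mouse caspase-11 gene whose product senses cytosolic LPS, rose by 1.96 ± 0.17, Casp1, the protease that cuts the precursors of interleukin-1 beta and interleukin-18, by 0.92 ± 0.11, and Ninj1, which ruptures the membrane of dying cells, by 0.78 ± 0.10. Nlrc4 (-0.82 ± 0.26) and Capn2 (-0.30 ± 0.10) fell. In LPS+RCMNs versus LPS 4 fell, 1 rose and 6 were not called (median 0.03). Of all tested genes 29.5% were called lower there, 29.8% higher and 59.3% in either direction, so the share called in the list was again smaller. Casp4 (-1.46 ± 0.17), Casp1 (-0.92 ± 0.11), Ninj1 (-0.54 ± 0.10) and Gsdmd, the pore former of pyroptosis (-0.32 ± 0.12), fell. Capn2 (0.57 ± 0.10), a subunit of the calpains that cut pro-interleukin-1 alpha, rose. With the length trend removed Casp4 and Casp1 kept their calls in both comparisons (1.31 and 0.35, then -0.86 and -0.40), and Ninj1 lost its calls (-0.05 and 0.23). The falls of Nlrc4 (-0.45, adjusted p = 0.182) and Capn2 (-0.10, adjusted p = 0.449) in LPS over control and of Gsdmd in LPS+RCMNs over LPS (0.06, adjusted p = 0.71) were not called then either, while the rise of Capn2 in LPS+RCMNs over LPS was (0.38, adjusted p = 0.0139). With a trend on length and level removed, Casp1 was not called in either (0.19 and -0.25), and Ninj1 was higher in LPS+RCMNs over LPS (0.36). Nlrp3, the sensor that LPS is known to prime, was at 30.4 to 49.6 FPKM in LPS+RCMNs, 30.0 to 33.4 FPKM in LPS and 30.6 to 60.5 FPKM in control libraries and was not called. Without both libraries that stood apart it was called in all 3 comparisons, at -0.40 in LPS over control (adjusted p = 0.000181), 0.20 in LPS+RCMNs over LPS (adjusted p = 0.0144) and -0.20 in LPS+RCMNs over control (adjusted p = 0.0411). Against control, 4.33% of all tested genes were called higher in LPS+RCMNs cells and 3.23% lower. Pycard, the inflammasome adaptor, was higher there (0.56 ± 0.13) and the other 10 genes of the list were not called. Without both libraries that stood apart, Capn2 (0.35, adjusted p = 0.00675) and Casp4 (0.63, adjusted p = 0.0137) were also called higher.

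**Figure D4:**
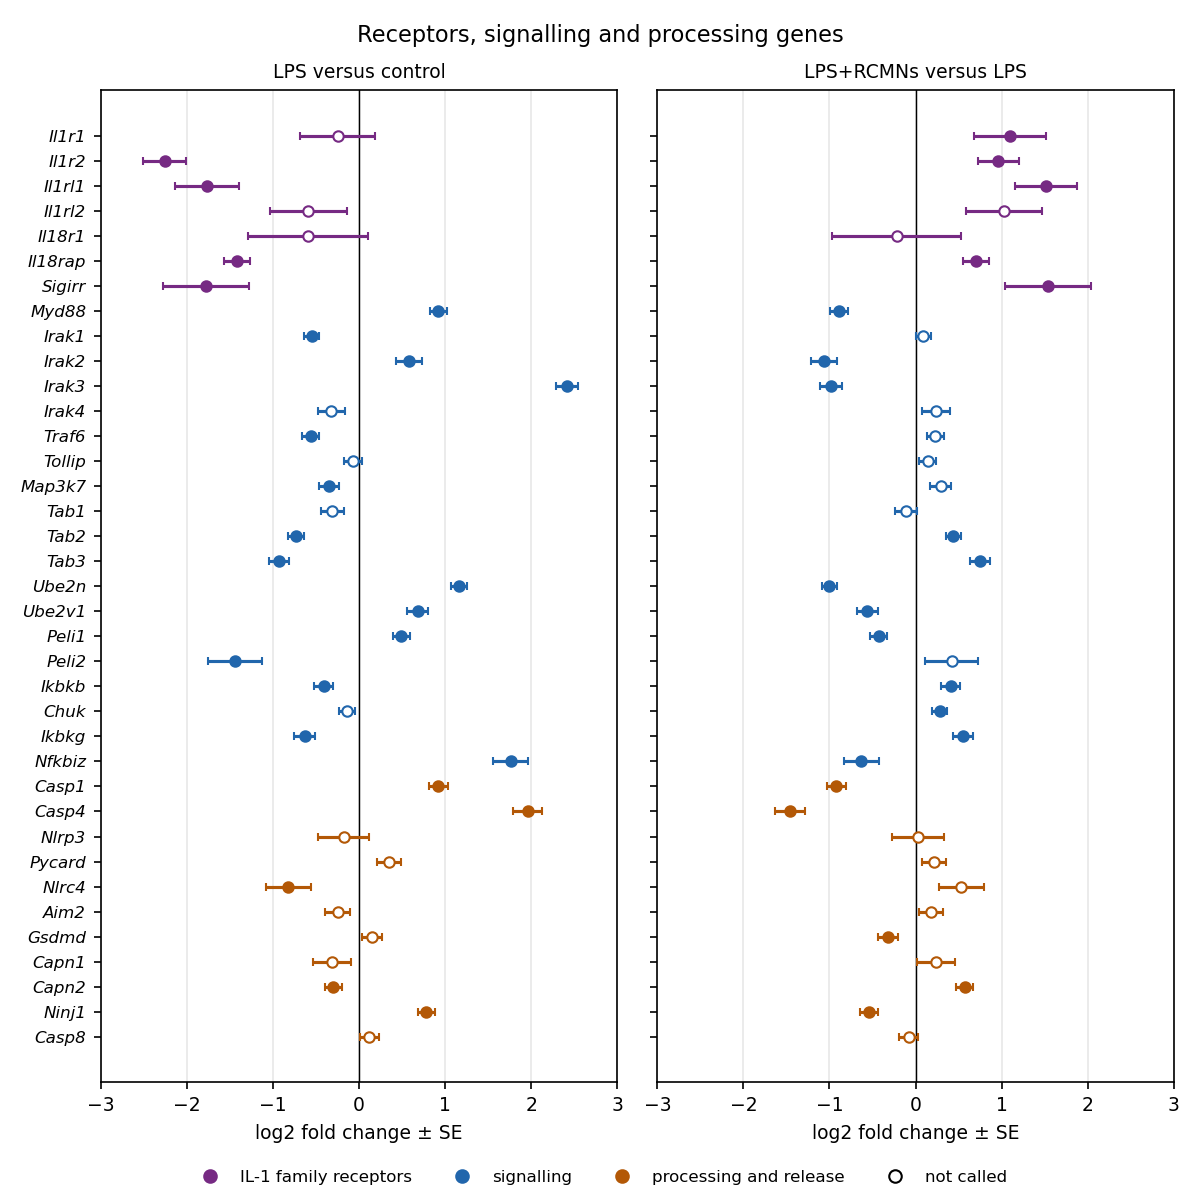
Log2 fold change ± SE of the 7 receptor, 19 signalling and 11 processing genes tested, in LPS versus control (left) and LPS+RCMNs versus LPS (right), with filled points for an adjusted p below 0.05. The panels share the LPS libraries, and receptor genes lie to the left of 0 on the left and, but for Il18r1, to the right of 0 on the right.

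The genes whose level followed a member most closely over the 8 libraries were sought among 7956 tested genes with a mean of at least 5 FPKM, by Pearson's r of log2 CPM, as a description over libraries that share treatment and depth. For Il1rn they were Acod1, which makes the antimicrobial metabolite itaconate (r = 0.998), Prdx5 (0.995) and Procr (0.994). Acod1 averaged 40.0 FPKM in LPS+RCMNs, 102 FPKM in LPS and 3.34 FPKM in control libraries. For Il1a they were Ifitm3 (0.998), Abhd17c (0.998) and Slpi (0.995), and for Il1b Mrpl52 (0.997), Pilra (0.996) and Cstb (0.995). For the members that did not pass a test, the closest were Nfkbid for Il18bp (0.985), Sap130 for Il1rap (0.933) and Tent2 for Il18 (0.926). Among the members, r was 0.99 between Il1a and Il1b, 0.96 between Il1b and Il1rn, and -0.89 between Il18 and Il1rap.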

How the data were processed

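The 6 members and all gene lists were chosen with earlier results of these data known. FastQC served for read quality, per the design text of the series, and mm10 is the build per the submitters' processing notes. Aligner, counter, annotation and strand setting are not given in the sources used. In 1 table, the authors deposited estimated counts (77.8% of values above 0 were not whole, tolerance 0.001), FPKM and TPM for each library. The deposited FPKM were used for levels, the deposited TPM for 1 alternative, and the counts, rounded, for tests. The table has 4 columns that match no labelled sample, and these were not used. Libraries held 18.6 to 21.2 M counts.

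Counts were filtered with filterByExpr (11911 genes kept), scaled by TMM and tested by edgeR 4.0.16's quasi-likelihood test (R 4.3.3) over all 8 libraries, with group as the factor and no block. P-values were adjusted by Benjamini-Hochberg over all genes tested, and a gene was called at an adjusted p below 0.05. The SE is the log2 fold change over the square root of F. Gene lengths were those implied by count and FPKM, and length trends were removed as loess offsets (span 0.4). Ratios are of counts divided by length, with exact (Clopper-Pearson) 95% intervals. The method was tested on simulated data.

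All members are named. List genes are named if called, at least the 3 of largest change per list and comparison. The 3 genes most like each member were taken by Pearson's r of log2 CPM (prior count 2). Alternatives were leaving out each library or both that stood apart, the 2 compared groups only, a replicate block, other filters and size factors, DESeq2 1.42.0, limma 3.58.1 on log2(FPKM + 1) and log2(FPKM + 0.1), length and level trends, and limma on log2(TPM + 1), which was chosen after the data were seen.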

Additional observations from a re-analysis of the deposited data

How the results depend on the processing

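Each result was recomputed under 21 alternatives. Il1a and Il1b kept direction and call in all 21 for the 3 comparisons, and Il1rn in all but limma on log2(TPM + 1) for LPS+RCMNs versus LPS (-0.57). No called value of a member changed sign, but those of some list genes did, as given above for Map3k7 and Ninj1. With a trend on length and level removed, Traf6 (-0.56 before, 0.31 then) and Ikbkg (-0.63 before, 0.36 then) turned from lower to higher in LPS versus control. Ikbkg turned from higher to lower in LPS+RCMNs versus LPS (0.55 before, -0.37 then). In LPS versus control Il18 was called with only the 2 groups compared (0.51), without LPS+RCMNs replicate 2 (0.54) and without both libraries that stood apart (0.62). It ranged from 0.41 to 0.66 with 1 library left out. Il18bp was called without both libraries (-0.84), on log2(FPKM + 1) (-0.47), log2(FPKM + 0.1) (-0.97) and TPM (-0.89), and Il1rap on those scales in that order (-0.44, -0.56 and -0.92). Under each of these 4 settings 5 members were called. Of all tested genes 74.9%, 67.5%, 68.5% and 77.2% were called there in that order, so the count says little about the members. In LPS+RCMNs versus LPS Il18 was called without both libraries (-0.44) and by DESeq2 (-0.69), Il18bp without both (0.98), on log2(FPKM + 1) (0.61), log2(FPKM + 0.1) (1.25) and TPM (1.08), and with the trend on length (1.54) or length and level (1.37) removed, and from 0.67 to 1.12 with 1 library left out it was called only without control replicate 1. Without both libraries and on both FPKM scales 5 members were called, where 73.8%, 63.5% and 64.9% of all tested genes were called in that order. Il1rap was called on log2(FPKM + 1) (0.42), log2(FPKM + 0.1) (0.54) and TPM (0.89). These scales move the median of all genes, by -0.33, -0.47 and -0.79 in LPS versus control and 0.27, 0.40 and 0.71 in LPS+RCMNs versus LPS, and the cause of these shifts was not tested. On log2(TPM + 1) 1020 genes were called higher and 8173 lower in LPS versus control, against 3736 and 3818 with TMM, and 7947 higher and 963 lower in LPS+RCMNs versus LPS, against 3555 and 3508; on log2(FPKM + 1) the calls were 2113 and 5925, then 5448 and 2117, and on log2(FPKM + 0.1) 2118 and 6042, then 5602 and 2131. Genes called in LPS+RCMNs versus control numbered 901, against 3017 without both libraries, 1379 by DESeq2 and 322 to 1372 with 1 library left out (1372 without LPS+RCMNs replicate 2, 322 without LPS+RCMNs replicate 3, 340 without LPS+RCMNs replicate 1, 442 without control replicate 2 and 415 without control replicate 3). With length and level trends removed, 4584 genes were called in LPS+RCMNs versus LPS. Where 1 LPS library was left out, the other was assumed to vary like the other groups.

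Same-numbered libraries deviated from their group means with correlations of -0.34 to 0.20, and libraries of unlike number with correlations of -0.31 to 0.38. With so few libraries in a group, their deviations depend on each other, so these values cannot decide whether the numbers pair libraries. With the replicate number as a block, 3365 genes were called higher and 3413 lower in LPS versus control, 3095 and 3089 in LPS+RCMNs versus LPS, and 454 in LPS+RCMNs versus control. Il18 was then called in LPS+RCMNs versus LPS (-0.80). Map3k7 lost its call in LPS versus control (-0.31, adjusted p = 0.087). Il1r1 (1.03, adjusted p = 0.12), Chuk (0.27, adjusted p = 0.0879) and Gsdmd (-0.31, adjusted p = 0.0657) lost theirs in LPS+RCMNs versus LPS. Pycard (0.57, adjusted p = 0.0718), Peli2 (-1.01, adjusted p = 0.115) and Traf6 (-0.34, adjusted p = 0.138) lost theirs in LPS+RCMNs versus control. The block with the length trend removed called 4276, 3582 and 479 genes in that order of comparisons. Except where given above, the cause of a changed call was not tested. Depth limits the control levels of Il1b (11 counts) and Il1a (12 counts), and Il18bp throughout (107 counts in LPS+RCMNs, 31 in LPS and 90 in control libraries).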
